A study of Mus musculus with 14 samples.

Results

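The 9 genes described here, Ager, Rtkn2, Hopx, Pdpn, Cav1, Clic5, Emp2, Gprc5a and Akap5, are expressed in alveolar type I cells, and their levels were followed in whole mouse lung on 14 Affymetrix arrays. They were chosen by symbol as genes of the type I cell, by a rule that uses no measured value, though with earlier results of these data known. All 9 have a probe set that the platform annotation maps to them alone, 18 probe sets in all of 45101 on the array, and all 9 passed the filter that left 11360 of 18194 genes for the tests. For each gene the probe set with the highest mean over the 14 arrays was used, and the other probe sets served as a check. The deposited values are log2 expression, so a difference of 1 is a doubling, and a level is read only against the same probe set on other arrays.

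The study asked how pre-B-cell colony-enhancing factor (PBEF, the product of Nampt) and mechanical ventilation act on the lung. The arrays fall into 4 groups by title. VILI PBEF+/- (n = 3) and VALI (n = 4) were ventilated for 4 hours, at a tidal volume of 40 ml/kg in the sample labels and of 30 ml/kg in the series text. PBEF+/- (n = 3) was not ventilated, and Control (n = 4) was given PBS. Animals were 8-12 weeks old in VILI PBEF+/- and 18-22 weeks old in the other groups, so a difference between VILI PBEF+/- and another group cannot be told apart from one of age. The series text names recombinant human PBEF instilled into the trachea, and whether PBEF+/- is a genotype or this protein is not settled by the labels. Strain is not given in the sources used here, and no label says that each array is a separate animal, which means that the p-values take only the differences among these samples into account.

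Alveolar type I cells are very thin, wide epithelial cells that cover most of the gas exchange surface and lie against the capillary endothelium across a shared basement membrane. They arise from alveolar type II cells, the cuboidal cells that make surfactant, through a transitional state rich in keratins, and cell stretch and YAP/TAZ with TEAD factors favour the type I state. Their surface is rich in caveolae, and their apical membrane carries podoplanin, while the receptor RAGE (Ager) lies at the basal side. Soluble RAGE in lavage fluid or plasma is used as a sign of injury to these cells.

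Arrays that go against their labels bear on every result here. Il6, interleukin-6, read 12.75, 12.33 and 10.32 on the log2 scale in VILI PBEF+/-, 9.60, 9.84 and 9.85 in VALI replicates 1 to 3, and 2.09 to 2.45 in Control. VALI replicate 4 read 2.78, near Control, and PBEF+/- replicate 3 read 10.87, near the ventilated arrays, while PBEF+/- replicates 1 and 2 read 2.10 and 2.56. Each comparison is given for all 14 arrays under their labels, in a fit without array weights, and then for the 12 arrays that remain without this pair. A fit to all 14 arrays with array weights called more genes and is given at the end. The pair was singled out by its own measured Il6, and p-values over the 12 arrays hold only given that choice. Nampt, the other check gene, read 9.95 to 10.36 in Control, 9.91 to 10.54 in VALI replicates 1 to 3 and 9.25 in VALI replicate 4. Its levels were 9.34, 9.21 and 10.71 in PBEF+/- replicates 1 to 3 and 10.79, 10.62 and 9.28 in VILI PBEF+/-. PBEF+/- replicate 2 stood apart in another way and had the lowest of the 14 values for 4 members. Xist, transcribed from the inactive X chromosome, was present in 3 of 3 VILI PBEF+/- and 3 of 4 VALI arrays. It was present in 2 of 3 PBEF+/- and 2 of 4 Control arrays. Xist was absent in Control replicates 1 and 4, VALI replicate 4 and PBEF+/- replicate 2. Over the 12 arrays it was therefore present in all VALI arrays but in only 2 of 4 Control arrays. The members' mean log2 level was 13.8 and 13.71 in Control replicates 1 and 4, against 13.61 and 13.53 in replicates 2 and 3. The difference between 3' and 5' actin probe sets, a measure of RNA integrity, was 0.547 to 0.602 in VILI PBEF+/-, 0.568 to 0.660 in VALI, 0.501 to 0.740 in PBEF+/- and 0.600 to 0.766 in Control. For Gapdh the same difference was 0.48 to 0.53 in VILI PBEF+/- and 0.40 to 0.52 in VALI. It was 0.30 to 0.80 in PBEF+/- and 0.47 to 0.79 in Control. The part of RNA integrity in the members' levels was not tested, and a fit with the Xist pattern as a term is given below.

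Ventilation in lungs not labelled PBEF+/- is addressed by VALI against Control, which was given PBS. The part of PBS in the differences from Control was not tested. With all 14 arrays, no type I gene passed the test, nor did any of the 11360 genes (0%), in limma's moderated test with Benjamini-Hochberg adjustment. At an unadjusted p under 0.05, 2075 genes (18.3%) differed, 1255 of them (11.0%) lower in VALI, and 5 of the 9 members did, all lower: Ager, Rtkn2, Cav1, Clic5 and Emp2. Over the 12 arrays, 6 of the 9 members fell in VALI, namely Ager, Rtkn2, Cav1, Clic5, Emp2 and Akap5, with log2 differences of -1.16 to -0.28. In that fit 1933 of all genes tested (17.0%) were called, 1191 (10.5%) lower and 742 (6.53%) higher. Hopx, Pdpn and Gprc5a were not called. The members' median difference was -0.29 over the 12 arrays, against -0.08 for all genes tested. With all 14 arrays it was -0.26, against -0.06. In whole lung, fewer type I cells and less RNA per cell cannot be told apart.

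The same 6 members were those whose VALI replicates 1 to 3 all lay below every Control array, a separation that 23.1% of all genes tested showed. With all 4 VALI arrays it held for Ager, Rtkn2 and Cav1, against 5.98% of genes. VALI replicates 1, 2 and 3 each lay under the 14-array median in 8 of the 9 members, and VALI replicate 4 in 1. Control replicates lay under it in 0, 2, 2 and 1 members. For 6 members (Ager, Rtkn2, Cav1, Clic5, Emp2 and Akap5) the group means over all arrays had the same order, lowest in VILI PBEF+/-, then VALI, then PBEF+/-, and highest in Control. Neighbours in that order overlapped in each of these genes except for Cav1, whose PBEF+/- arrays all lay below Control.

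**Figure D1:**
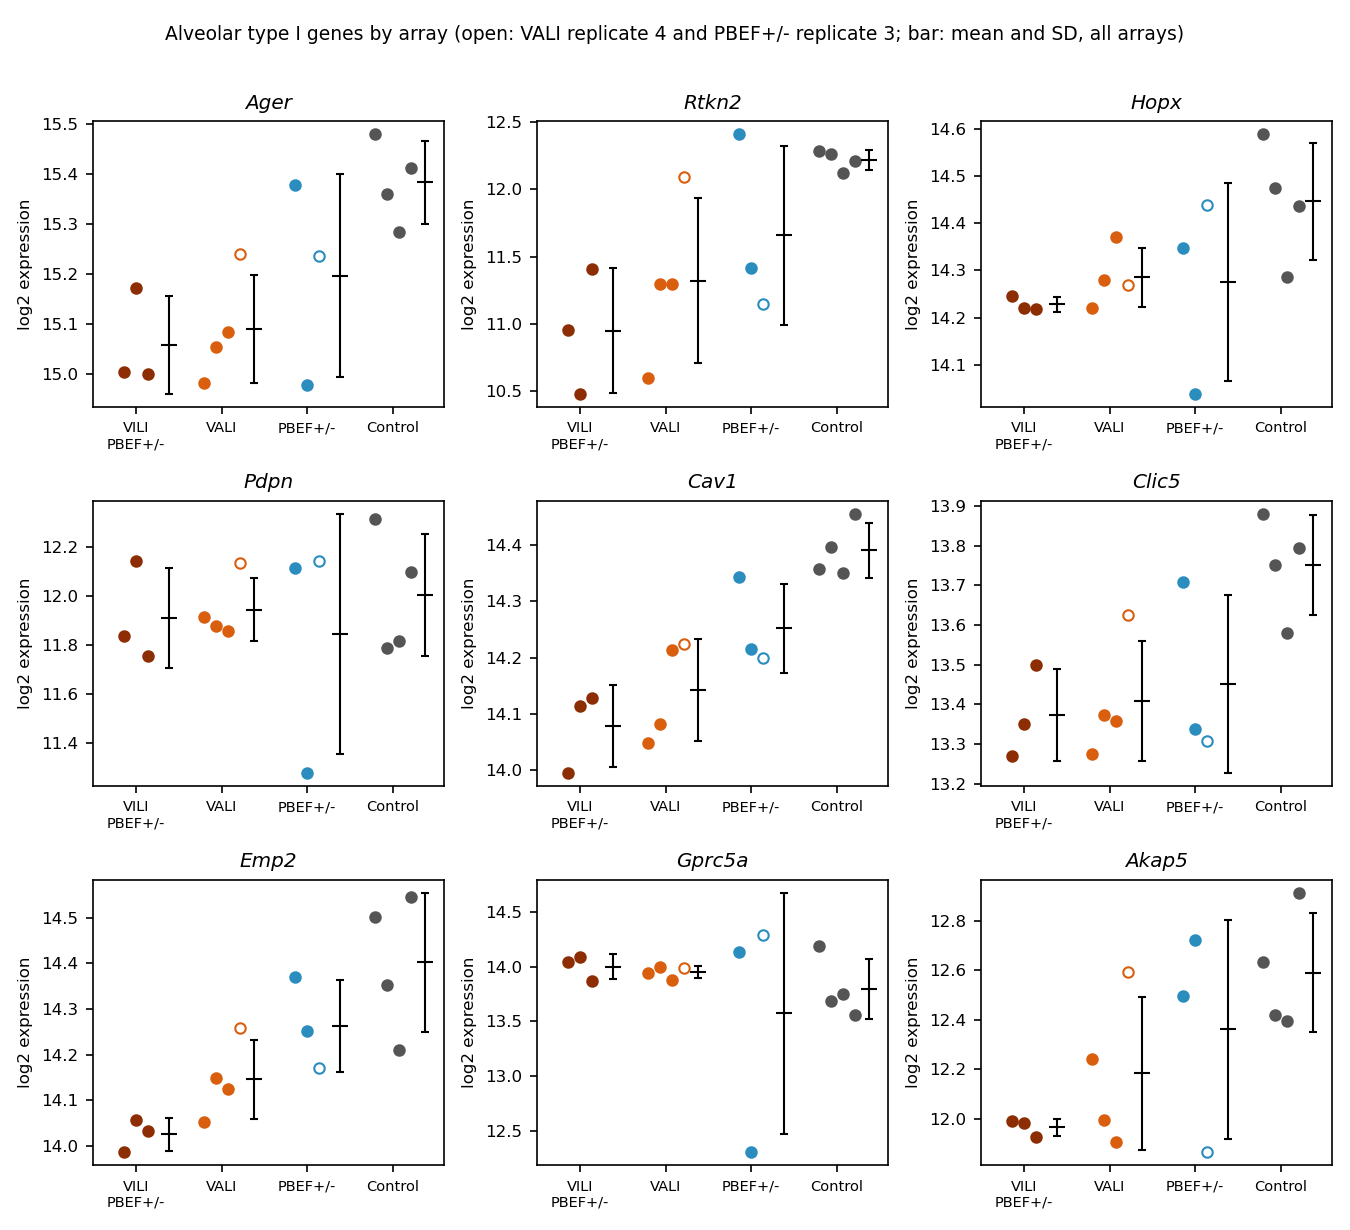
Log2 expression of the 9 alveolar type I genes on every array, 1 panel per gene with its own axis; points are arrays, open points are VALI replicate 4 and PBEF+/- replicate 3, and bars are the mean and SD of all arrays of a group. Ager, Rtkn2 and Cav1 lie below every Control array on all 4 VALI arrays, and Gprc5a shows a single low array, PBEF+/- replicate 2 at 12.31.

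The promoters of 5 members that fell over the 12 arrays and of Pdpn, which did not, are printed to show what the genes share at their starts. RefSeq windows of 250 bases before a transcription start (GRCm38.p6) were given for 7 of the 9 genes. Rtkn2 and Gprc5a had none. The windows lie at chr17:34597600-34597849 (plus strand, Ager), chr6:17306085-17306334 (plus, the first of 2 Cav1 starts), chr17:44188322-44188571 (plus, Clic5), chr16:10313969-10314218 (minus, Emp2), chr12:76324641-76324890 (plus, Akap5) and chr4:143299565-143299814 (minus, Pdpn). Those of Ager, Clic5 and Akap5 lie inside the annotated gene, upstream of the start that the table uses. Sequences run 5′ to 3′ on the gene's strand, and capitals mark matches to a searched motif.
Ager: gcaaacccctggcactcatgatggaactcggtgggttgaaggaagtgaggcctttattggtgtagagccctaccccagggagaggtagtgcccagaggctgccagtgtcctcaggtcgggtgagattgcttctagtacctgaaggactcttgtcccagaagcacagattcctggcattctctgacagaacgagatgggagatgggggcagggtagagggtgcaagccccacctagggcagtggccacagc
Cav1: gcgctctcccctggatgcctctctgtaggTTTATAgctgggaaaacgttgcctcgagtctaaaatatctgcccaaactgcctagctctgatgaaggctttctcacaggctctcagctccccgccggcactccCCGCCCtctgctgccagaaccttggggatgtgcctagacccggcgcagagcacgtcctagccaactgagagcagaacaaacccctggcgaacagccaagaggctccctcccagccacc
Clic5: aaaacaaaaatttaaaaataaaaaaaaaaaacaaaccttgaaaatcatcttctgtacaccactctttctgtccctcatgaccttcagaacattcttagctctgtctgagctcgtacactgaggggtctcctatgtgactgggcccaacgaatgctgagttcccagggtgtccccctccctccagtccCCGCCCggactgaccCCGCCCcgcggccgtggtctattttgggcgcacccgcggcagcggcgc
Emp2: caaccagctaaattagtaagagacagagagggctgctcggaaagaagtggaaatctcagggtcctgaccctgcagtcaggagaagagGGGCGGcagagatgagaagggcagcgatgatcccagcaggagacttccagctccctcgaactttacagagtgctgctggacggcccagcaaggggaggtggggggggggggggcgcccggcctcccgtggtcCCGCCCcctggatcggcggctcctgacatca
Akap5: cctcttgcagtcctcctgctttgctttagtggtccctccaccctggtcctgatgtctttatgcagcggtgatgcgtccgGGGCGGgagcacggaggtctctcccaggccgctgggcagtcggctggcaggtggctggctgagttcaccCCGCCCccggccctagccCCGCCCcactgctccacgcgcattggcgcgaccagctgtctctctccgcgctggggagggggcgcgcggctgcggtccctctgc
Pdpn: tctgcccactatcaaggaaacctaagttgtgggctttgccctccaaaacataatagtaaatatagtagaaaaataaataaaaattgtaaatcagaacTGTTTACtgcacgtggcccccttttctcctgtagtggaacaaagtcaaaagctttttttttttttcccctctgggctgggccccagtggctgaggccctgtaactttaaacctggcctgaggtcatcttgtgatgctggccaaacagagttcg
The motifs, searched on both strands, were TEAD (GGAATG), NKX2-1 (CTCAAG), FOX (TGTTTNC), SP/KLF (GGGCGG), AP-1 (TGANTCA) and the TATA box (TATAAA). The SP/KLF motif occurred in the windows of Cav1, Clic5, Emp2 and Akap5 (1, 2, 2 and 3 matches), and 32.7% of all 32851 windows hold it. The window of Akap5 is 70.0% G and C, that of Emp2 62.8%, Cav1 59.6%, Ager 57.6%, Clic5 52.8% and Pdpn 43.2%, against a median of 52.4% over all windows. The windows not printed are the second of Cav1, at 60.8%, and those of Hopx, at 52.4% and 57.6%. None of these holds an SP/KLF match. A TATA box match lies 221 bases before the Cav1 start (12.4% of windows hold one), a FOX match 153 bases before the Pdpn start (17.8%), and the Ager window holds none of the 6 motifs. TEAD matches (12.6% of windows) and AP-1 matches (6.75%) were found in none of the members' windows, and an NKX2-1 match (13.3%) was found only for Hopx. A match is a description of the letters, not a binding site.

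Ager, on chromosome 17 (34597460-34600937), encodes RAGE, an immunoglobulin-superfamily receptor for S100 proteins and HMGB1. It read 14.98, 15.06, 15.08 and 15.24 in VALI replicates 1 to 4, against 15.48, 15.36, 15.28 and 15.41 in Control. All 4 VALI arrays were below all 4 Control arrays, with replicate 4 the nearest to Control. The log2 difference was -0.29 ± 0.09 (SE) over all arrays (limma, adjusted p = 0.144), and over the 12 arrays -0.34 ± 0.09 (adjusted p = 0.0236), a 1.27-fold lower level. The second Ager probe set differed by -0.30 over the 12 arrays and was not called (adjusted p = 0.161 over 23168 probe sets).

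Cav1, on chromosome 6 (17306335-17341328), encodes caveolin-1, the main coat protein of caveolae, and is also abundant in endothelium. Its levels were 14.05, 14.08, 14.21 and 14.22 in VALI, against 14.36, 14.40, 14.35 and 14.46 in Control. The groups did not overlap, and Cav1 had the smallest p of the 9 members with all 14 arrays. Its log2 difference was -0.25 ± 0.06 over all arrays (limma, adjusted p = 0.0987) and -0.28 ± 0.06 over the 12 arrays (adjusted p = 0.0141).

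Emp2, on chromosome 16 (10281749-10313968), encodes a tetraspan membrane protein of the PMP22 family that takes part in the traffic of integrins and caveolins. It read 14.05, 14.15, 14.12 and 14.26 in VALI, against 14.50, 14.35, 14.21 and 14.54 in Control. VALI replicate 4 lay above the lowest Control array, and the other 3 lay below all of them. The log2 difference was -0.26 ± 0.08 with all arrays (limma, adjusted p = 0.155) and -0.29 ± 0.08 over the 12 arrays (adjusted p = 0.0269). The other probe sets for Emp2 differed by -0.58 and -0.37 and were not called.

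In the 12-array fit 10.5% of all genes tested were called lower in VALI and 6.53% higher, and the counts in this paragraph stand beside these shares. Of the other caveola genes, 3 of 5 tested fell over the 12 arrays and none rose. Those that fell were Cav2 (-0.22 ± 0.06), the caveola coat gene Cavin2 (-0.38 ± 0.10) and Ehd2, an ATPase at the caveola neck (-0.86 ± 0.13). Of 12 endothelial markers tested, 5 fell, Calcrl, Kdr, Sox17, Sox18 and Tek, the last with a log2 difference of -0.89 ± 0.10, and none rose. The mean log2 level of these 12 markers lay between 11.79 and 12.25 in VALI and between 12.36 and 12.49 in Control, with no overlap. The markers of other cell types were read in the same way. Of 8 fibroblast markers 1 fell, Tcf21 (-0.77 ± 0.21), and none rose. The mean log2 level of that list was 12.43 to 12.64 in VALI and 12.74 to 12.83 in Control, also with no overlap. Of 8 club and ciliated cell markers 5 fell and none rose, namely Dynlrb2 (-0.81 ± 0.11), Cyp2f2 (-0.59 ± 0.08), Tppp3 (-0.53 ± 0.12), Scgb3a2 (-0.37 ± 0.09) and Scgb1a1 (-0.16 ± 0.05). Their mean log2 level was 11.90, 11.92 and 12.11 in VALI replicates 1 to 3 and 12.35 in replicate 4, against 12.30 to 12.50 in Control. None of the 8 heart muscle markers was called. No gene of these lists was called with all 14 arrays. The part of other cell types' RNA in the levels of the members was not tested.

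Clic5, on chromosome 17 (44134762-44280169), belongs to the chloride intracellular channel family and is tied to ezrin and cortical actin. It read 13.28, 13.37, 13.36 and 13.63 in VALI, against 13.88, 13.75, 13.58 and 13.79 in Control. Replicate 4 of VALI lay inside the Control range and the other 3 below it. The log2 difference was -0.34 ± 0.11 with all arrays (limma, adjusted p = 0.160) and -0.42 ± 0.10 over the 12 arrays (adjusted p = 0.0164). All 4 Clic5 probe sets were called lower over the 12 arrays, with differences of -0.85 to -0.41.

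Rtkn2, on chromosome 10 (67979566-68058429), encodes rotekin-2. Its VALI levels were 10.60, 11.29, 11.30 and 12.09, against 12.28, 12.26, 12.12 and 12.21 in Control. The Control arrays lay close together (SD 0.07) while the VALI arrays spread widely (SD 0.61), all of them below Control. The log2 difference was -0.90 ± 0.31 with all arrays (limma, adjusted p = 0.186) and -1.16 ± 0.26 over the 12 arrays (adjusted p = 0.0128). This 2.23-fold lower level was the largest difference among the 9 members.

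Akap5, on chromosome 12 (76324617-76334517), encodes an anchoring protein that holds protein kinase A and calcineurin at the plasma membrane. It read 12.24, 11.99, 11.90 and 12.59 in VALI, against 12.63, 12.42, 12.39 and 12.91 in Control. VALI replicate 4 stood inside the Control range, and replicates 1 to 3 below it. The log2 difference was -0.41 ± 0.19 with all arrays (limma, adjusted p = 0.275) and -0.54 ± 0.13 over the 12 arrays (adjusted p = 0.0155). All 3 Akap5 probe sets were called lower there, the others with differences of -1.14 and -0.91.

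Hopx, on chromosome 5 (77086986-77115123), encodes a small homeodomain protein that does not bind DNA itself and that marks type I cells and their progenitors. Its levels were 14.22, 14.28, 14.37 and 14.27 in VALI, against 14.59, 14.47, 14.29 and 14.44 in Control. VALI replicate 3 lay above Control replicate 3, and the groups overlapped there. The difference was -0.16 ± 0.09 with all arrays (limma, adjusted p = 0.329) and the same over the 12 arrays (adjusted p = 0.235), with a 95% interval of -0.34 to 0.03. Its second probe set gave -0.28 over the 12 arrays and was called (adjusted p = 0.0440 over 23168 probe sets), so the probe sets of Hopx disagreed in their call.

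Pdpn, on chromosome 4 (143267409-143299564), encodes podoplanin, a mucin-type glycoprotein of the apical membrane that lymphatic endothelium and mesothelium also carry. It read 11.91, 11.87, 11.85 and 12.13 in VALI, against 12.31, 11.79, 11.82 and 12.10 in Control, and the ranges overlapped. The difference over the 12 arrays was -0.12 ± 0.19 (limma, adjusted p = 0.692), with a 95% interval of -0.53 to 0.29. Of the 4 lymphatic markers tested, 2 rose over the 12 arrays, Flt4 (0.51 ± 0.16) and Lyve1 (0.81 ± 0.21), where 6.53% of all genes did. Of the 6 mesothelial markers 1 rose, Krt19 (1.43 ± 0.19), which is also counted below as a gene of the transitional state. The other mesothelial markers lay below 0 and were not called: Lrrn4 (-0.86 ± 0.29), Wt1 (-0.57 ± 0.41), Upk3b (-0.45 ± 0.26), Upk1b (-0.41 ± 0.19) and Msln (-0.16 ± 0.29). The mean log2 level of the lymphatic markers was 9.38 to 10.50 in VALI and 9.29 to 10.26 in Control, and that of the mesothelial markers 9.06 to 9.35 in VALI and 8.93 to 9.83 in Control. Their part in the Pdpn level was not tested.

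Gprc5a, on chromosome 6 (135065662-135084709), encodes an orphan receptor induced by retinoic acid. It read 13.94, 13.997, 13.88 and 13.99 in VALI, against 14.19, 13.69, 13.75 and 13.56 in Control. It was the only member with a higher mean in VALI than in Control, and the ranges overlapped. The difference over the 12 arrays was 0.14 ± 0.32 (limma, adjusted p = 0.791), with a 95% interval of -0.55 to 0.84. PBEF+/- replicate 2, at 12.31, enters the spread shared by the groups.

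**Figure D2:**
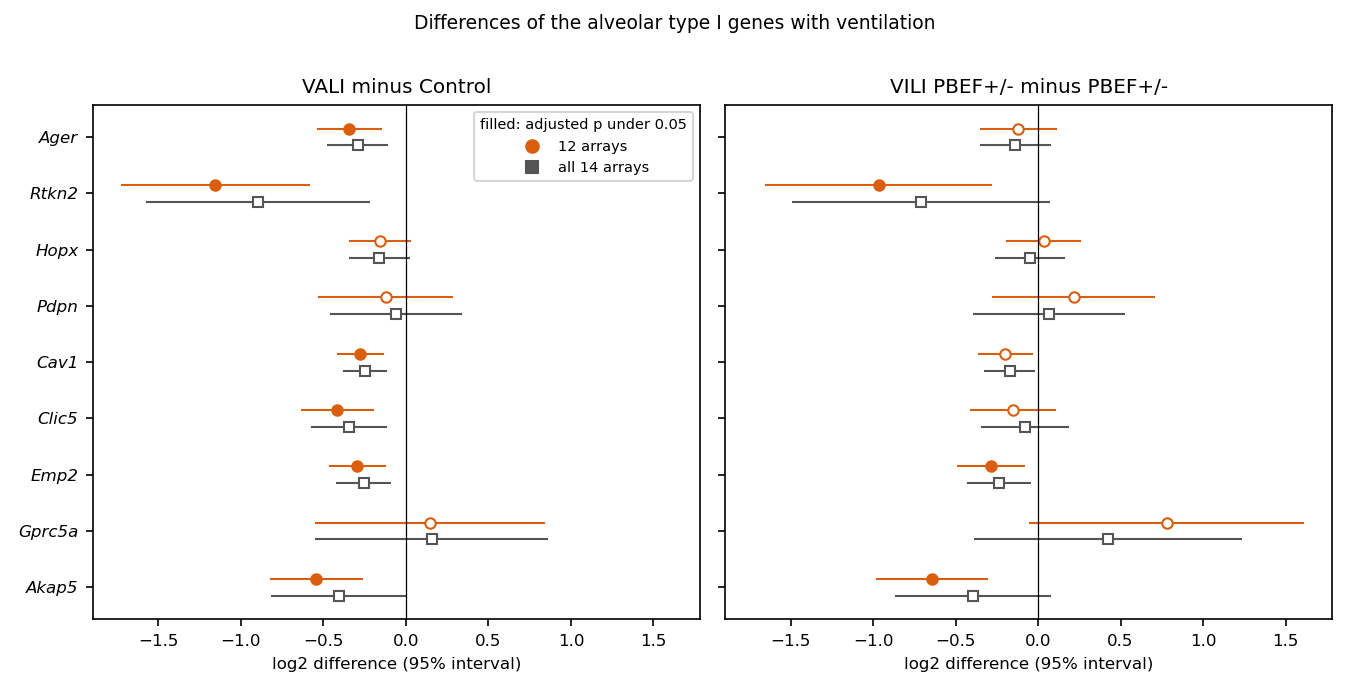
Log2 difference of each member with its 95% interval, for VALI minus Control and VILI PBEF+/- minus PBEF+/-; circles are the 12-array fit, squares the fit to all 14 arrays, and filled symbols have an adjusted p under 0.05. In VALI minus Control 6 circles are filled and no square is, and Rtkn2 lies farthest to the left at -1.16.

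The 12-array calls in VALI against Control rested on few arrays. When 1 more array was left out of the 12, between 1 and 6 members were called, and between 985 and 2524 of all genes. Without VALI replicate 1 only Akap5 was called, without VALI replicate 2 only Rtkn2 and Clic5, and without VALI replicate 3, Control replicate 1 or Control replicate 4 it was 4 members each. Over these 12 fits Rtkn2 and Clic5 were called in 11 each, Cav1 and Akap5 in 10 each, Ager in 8 and Emp2 in 7. With the Xist pattern as a term, chosen after seeing the data, 5 members were called over the 12 arrays, and Emp2 had an adjusted p of 0.0889.

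Over all 18 probe sets of the members, 17 lay below 0 in VALI minus Control over the 12 arrays, and 12 were called, all lower. These probe sets share genes and arrays and are not independent.

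**Figure D3:**
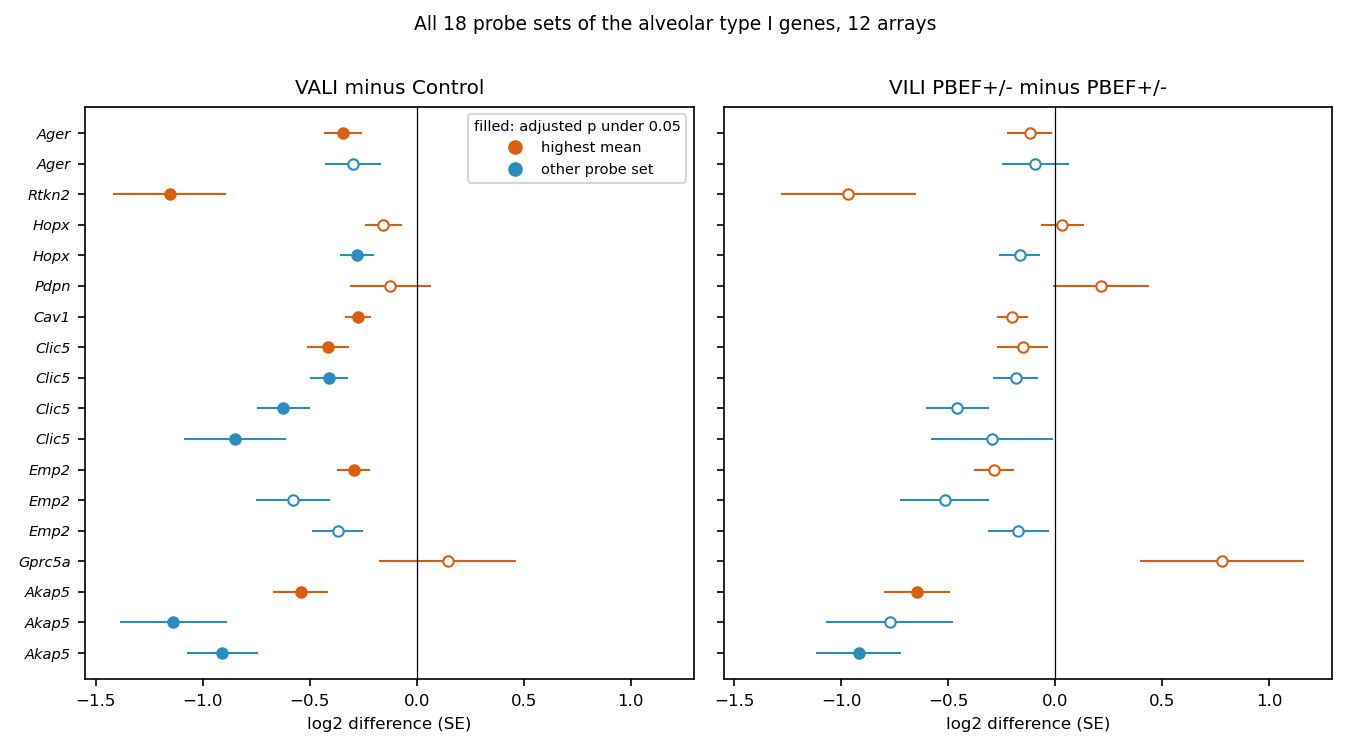
Log2 difference with its standard error for all 18 probe sets of the 9 genes over the 12 arrays; orange marks the probe set with the highest mean of each gene, blue the others, and filled symbols have an adjusted p under 0.05 over 23168 probe sets. In VALI minus Control all 4 Clic5 and all 3 Akap5 probe sets are filled, and Gprc5a alone lies above 0.

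Other type I genes were read from a separate list of 24, of which 23 were tested. Over the 12 arrays, 6 fell in VALI and 1 rose, against 10.5% and 6.53% of all genes. Those that fell were Lama3, a chain of the basement membrane laminin-332 (-0.69 ± 0.15), the basement membrane proteoglycan Agrn (-0.51 ± 0.12), the actin and myosin binding protein Limch1 (-0.44 ± 0.10), Vegfa, the growth factor through which type I cells act on capillaries (-0.41 ± 0.12), Sec14l3 (-0.37 ± 0.08) and Scnn1g, a subunit of the epithelial sodium channel (-0.32 ± 0.09). Lmo7, a protein of cell junctions, rose (0.32 ± 0.09). The water channel gene Aqp5 (-0.40 ± 0.18, limma adjusted p = 0.142) and the tight junction gene Cldn18 (-0.33 ± 0.18, adjusted p = 0.225) were not called. The median of the list was -0.31. With all 14 arrays none of the 23 was called, and the median was -0.19.

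Genes of the type II and transitional states were read beside them, where 10.5% of all genes tested were called lower and 6.53% higher over the 12 arrays. None of the 11 type II markers tested was called in either direction, with a median of -0.05. Sftpc, 1 of them, read 15.45 to 15.58 on the 4 VALI arrays, below all Control arrays at 15.61 to 15.70. The mean log2 level of the type II list overlapped, at 13.65 to 14.03 in VALI and 13.55 to 14.21 in Control. Of 9 genes of the transitional state, 7 rose over the 12 arrays and none fell, led by the tight junction gene Cldn4 (6.44 ± 0.40) and by Sfn, the 14-3-3 sigma gene (4.65 ± 0.37), with the keratins Krt18 (1.69 ± 0.17), Krt8 (1.66 ± 0.22) and Krt19 (1.43 ± 0.19), Lgals3 (0.91 ± 0.11) and Clu (0.45 ± 0.10). All 8 neutrophil markers rose, Mmp8 (6.82 ± 0.36), Il1r2 (6.30 ± 0.35), Clec4e (5.06 ± 0.44), Csf3r (2.97 ± 0.29), Cxcr2 (2.64 ± 0.26), Mmp9 (1.94 ± 0.54), and S100a8 (3.24 ± 0.44) and S100a9 (3.496 ± 0.55), which are also ligands of RAGE. These were the 2 genes of 6 RAGE ligands and partners tested that rose, and none fell. The mean log2 level of the neutrophil markers was 6.64 to 10.65 in VALI, with replicate 4 the lowest, and 5.64 to 6.79 in Control. Of 13 transcription factors and YAP targets tested, 4 fell, Foxa2 (-1.02 ± 0.15), Foxa1 (-0.60 ± 0.13), Gata6 (-0.48 ± 0.11) and Yap1 (-0.38 ± 0.09), and 2 rose, the YAP target Ccn1 (0.92 ± 0.20) and Klf5 (0.69 ± 0.13). With all 14 arrays no gene of these lists was called.

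**Figure D4:**
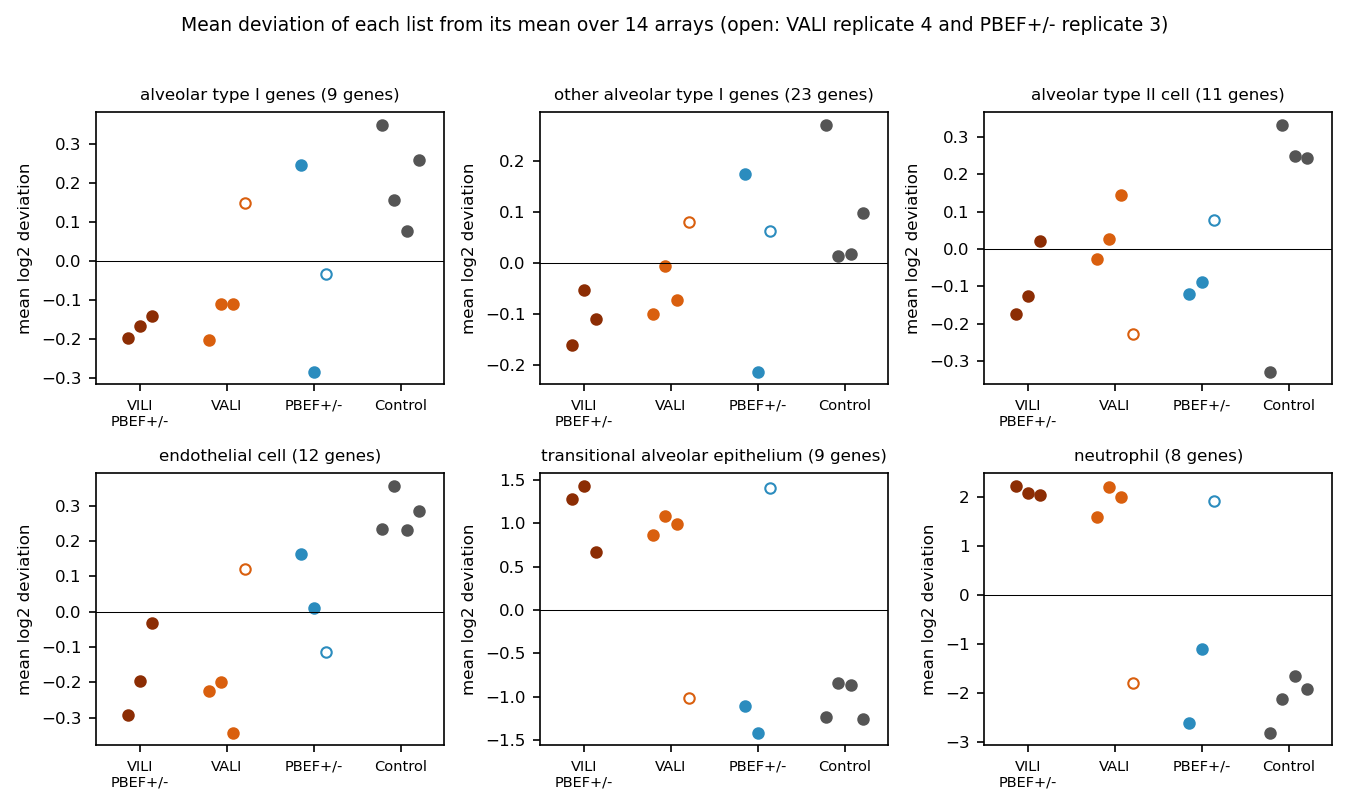
Mean log2 deviation of 6 gene lists from their own mean over the 14 arrays, 1 point per array with open points for VALI replicate 4 and PBEF+/- replicate 3. The members read -0.196 to -0.139 in VILI PBEF+/-, -0.201 to 0.149 in VALI and 0.078 to 0.349 in Control. The endothelial list reads -0.291 to -0.032 in VILI PBEF+/-, -0.342 to 0.119 in VALI and 0.232 to 0.356 in Control. The neutrophil list reads 2.04 to 2.22 in VILI PBEF+/- and -2.81 to -1.66 in Control. VILI PBEF+/- and Control differ in ventilation, PBEF label and age.

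Ventilation in lungs labelled PBEF+/- is addressed by VILI PBEF+/- against PBEF+/-, a comparison in which age differed too. With all 14 arrays no member and none of the 11360 genes (0%) was called, with 2355 genes (20.7%), 1293 of them lower (11.4%), and 2 members, Cav1 and Emp2, both lower, at an unadjusted p under 0.05. Those 2 genes were also the members whose VILI PBEF+/- arrays all lay below every PBEF+/- array, as did 10.8% of all genes. Over the 12 arrays 3 members fell, Rtkn2, Emp2 and Akap5, where 1736 of all genes tested (15.3%) were called lower and 1267 (11.2%) higher, 26.4% in all. These 3 and Cav1 had every VILI PBEF+/- array below both PBEF+/- arrays, as did 30.1% of all genes. PBEF+/- is then represented by 2 arrays. The members' median was -0.15, against -0.07 for all genes.

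Rtkn2 read 10.95, 10.48 and 11.41 in VILI PBEF+/-, against 12.41 and 11.42 in PBEF+/- replicates 1 and 2 and 11.15 in replicate 3. VILI PBEF+/- replicate 3 lay just under PBEF+/- replicate 2, and above replicate 3. The log2 difference was -0.71 ± 0.36 with all arrays (limma, adjusted p = 0.271) and -0.97 ± 0.31 over the 12 arrays (adjusted p = 0.0416).

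Akap5 read 11.99, 11.98 and 11.92 in VILI PBEF+/-, against 12.50, 12.72 and 11.87 in PBEF+/-. The 3 ventilated arrays lay close together (SD 0.04), and only PBEF+/- replicate 3 was lower. The difference was -0.40 ± 0.22 with all arrays (limma, adjusted p = 0.300) and -0.64 ± 0.15 over the 12 arrays (adjusted p = 0.0115). Of the other Akap5 probe sets, 1 was called.

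Emp2 read 13.99, 14.06 and 14.03 in VILI PBEF+/-, against 14.37, 14.25 and 14.17 in PBEF+/-, with no overlap on all arrays. The difference was -0.24 ± 0.09 with all arrays (limma, adjusted p = 0.188) and -0.29 ± 0.10 over the 12 arrays (adjusted p = 0.0461). Cav1 likewise did not overlap, at 13.995, 14.12 and 14.13 in VILI PBEF+/-, against 14.34, 14.21 and 14.20 in PBEF+/-. Its difference over the 12 arrays, -0.20 ± 0.08, was not called (limma, adjusted p = 0.0746). When all 18 probe sets were tested over 23168 probe sets, 2 were called in this comparison, both of Akap5, and the Rtkn2 and Emp2 probe sets had adjusted p of 0.0537 and 0.0528.

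The other 5 members were not called. Ager read 15.005, 15.17 and 15.001 in VILI PBEF+/-, against 15.38, 14.98 and 15.24 in PBEF+/-. Clic5 read 13.27, 13.35 and 13.50 in VILI PBEF+/-, against 13.71, 13.34 and 13.31 in PBEF+/-. Hopx read 14.25, 14.22 and 14.22 in VILI PBEF+/-, against 14.35, 14.04 and 14.44 in PBEF+/-. PBEF+/- replicate 2 lay below all 3 ventilated arrays for Ager and Hopx and among them for Clic5. Pdpn read 11.84, 12.14 and 11.75 in VILI PBEF+/-, against 12.11, 11.28 and 12.14 in PBEF+/-. Gprc5a read 14.04, 14.09 and 13.87 in VILI PBEF+/-, against 14.13, 12.31 and 14.29 in PBEF+/-. Both had their lowest value of all arrays in PBEF+/- replicate 2, and their 12-array differences were 0.21 ± 0.22 and 0.78 ± 0.38 (limma, adjusted p = 0.5003 and 0.146).

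The calls of this comparison moved with single PBEF+/- arrays. Without PBEF+/- replicate 2, Ager and Rtkn2 were called over the remaining arrays, both lower, and without PBEF+/- replicate 1, Pdpn and Gprc5a were called higher and Akap5 lower. In both cases 1 PBEF+/- array stood for the group and was assumed to vary like the other groups. Over the fits that left out 1 more of the 12 arrays, 1 to 3 members and 1820 to 3710 of all genes were called.

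The lists were read in the same comparison over the 12 arrays, where 15.3% of all genes tested were called lower and 11.2% higher. Of the other type I genes, 7 of 23 fell, Ndnf (-1.25 ± 0.35), the collagen IV chain gene Col4a4 (-0.57 ± 0.13), Vegfa (-0.55 ± 0.14), Agrn (-0.54 ± 0.14), Cryab, Scnn1g (-0.53 ± 0.11) and Sec14l3 (-0.47 ± 0.09). The list had 2 genes that rose, Fstl3 (0.93 ± 0.26) and Timp3, a metalloproteinase inhibitor (0.58 ± 0.14). Of 5 caveola genes 2 fell, Cav2 and Cavin2. Of 6 RAGE ligands and partners 2 rose, S100a8 and S100a9, and 2 fell, the ligand gene S100a4 (-1.13 ± 0.29) and Adam10, the protease that sheds RAGE (-0.27 ± 0.09). No type II marker of 11 was called. Sftpc read 15.38 to 15.47 in VILI PBEF+/-, below all 3 PBEF+/- arrays at 15.53 to 15.64. The mean log2 level of the type II list overlapped, at 13.71 to 13.9 in VILI PBEF+/- and 13.76 to 13.96 in PBEF+/-.

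Markers of other cells were called in both directions, against the same shares of 15.3% lower and 11.2% higher over all genes tested. Of 12 endothelial markers 4 fell, Kdr (-1.38 ± 0.27), Sox17, Tek and Calcrl. Of 8 club and ciliated markers 4 fell, Dynlrb2 (-1.24 ± 0.13), Cyp2f2 (-0.65 ± 0.10), Scgb3a2 and Scgb1a1. Heart muscle markers fell in 2 of 8, Myl4 (-0.73 ± 0.16) and Actc1 (-0.72 ± 0.22), and fibroblast markers in 1 of 8, Npnt (-0.41 ± 0.10). Those that rose were 8 of 8 neutrophil markers, 7 of 9 transitional genes, 1 of 4 lymphatic markers, Lyve1 (1.20 ± 0.25), and 1 of 6 mesothelial markers, Krt19. Of 13 transcription factors and YAP targets 4 rose, Ccn1, Klf5, Ankrd1 and Wwtr1, and Foxa2 fell. No gene of any list was called in this comparison with all 14 arrays. The part of other cells' RNA in the members' levels was not tested.

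PBEF+/- against Control addresses the effect of the PBEF label without ventilation. No gene and no member was called with all 14 arrays (0%), where 938 genes (8.26%), 719 of them lower (6.33%), and 1 member, Clic5, lower, had an unadjusted p under 0.05. Clic5 read 13.71, 13.34 and 13.31 in PBEF+/-, against 13.88, 13.75, 13.58 and 13.79 in Control, a difference of -0.30 ± 0.12 (limma, adjusted p = 0.593). Cav1 was the only member whose PBEF+/- arrays all lay below Control, as for 4.45% of genes, with a difference of -0.14 ± 0.07. All 9 members had a lower mean in PBEF+/- than in Control, with log2 differences of -0.56 to -0.14, where 66.7% of all genes did. The Control arrays are shared with the comparison of VALI against Control. The members' mean log2 deviation from their own mean over the 14 arrays was 0.245 in PBEF+/- replicate 1. This lay inside the Control range of 0.078 to 0.349, while replicates 2 and 3 read -0.283 and -0.033. Over the 12 arrays 0 genes were called, 1257 (11.1%) had an unadjusted p under 0.05, and 1 member did, Hopx (-0.25 ± 0.10, limma unadjusted p = 0.0248, adjusted p = 0.450). Clic5 then differed by -0.23 ± 0.11 (limma, adjusted p = 0.457) and Akap5 by 0.02 ± 0.15.

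VILI PBEF+/- against VALI sets both ventilated groups side by side. With all 14 arrays 0 genes (0%) and 0 members were called, and 0 members had an unadjusted p under 0.05, where 1191 genes (10.5%) did. Over the 12 arrays 13 genes (0.114%) were called, none of them a member. The members' differences then lay between -0.12 for Rtkn2, with a 95% interval of -0.73 to 0.50, and 0.06 for Gprc5a, with an interval of -0.69 to 0.80. For Ager the interval was -0.19 to 0.23 and for Cav1 -0.19 to 0.11. The interaction, the difference between the response in lungs labelled PBEF+/- and in the others, gave 0 called genes (0%) and 0 members in both fits, with 634 genes (5.58%) over all arrays and 1176 (10.4%) over the 12 arrays at an unadjusted p under 0.05, none of them a member. Members' interaction values over the 12 arrays ran from -0.10 for Akap5 to 0.64 for Gprc5a. VALI against Control called 6 members and VILI PBEF+/- against PBEF+/- called 3, and the interaction, which tests the difference between the responses, called none of the 9, which does not show that the responses were equal. The count of 0 rested on PBEF+/- replicate 1: without it 1242 genes and 2 members, Ager and Gprc5a, were called, with PBEF+/- replicate 2 alone for its group. Without VILI PBEF+/- replicate 3 it was 41 genes and 0 members, and without each other array of the 12 it was 0.

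The members' profiles over the 14 arrays were like that of Ager to unequal degrees. Each gene's 14 values were put on a common scale (mean 0, SD 1), and likeness was taken as the mean absolute difference between profiles, in SD units. To Ager, Clic5 (0.330), Emp2 (0.382) and Cav1 (0.447) were the nearest members, then Rtkn2 (0.516), Hopx (0.576), Akap5 (0.688) and Pdpn (0.716), and Gprc5a (1.03) was the farthest. Of all other genes tested, the nearest to the members' mean profile were Gnas (0.226), Ldb1 (0.249), Hhip (0.260), Mllt6 (0.262) and Itm2b (0.277). Those nearest to Ager were Gnas (0.235), Itm2b (0.256), Rsu1 (0.293), Lamp1 (0.298) and Tbl1x (0.302). Each of these lay nearer to Ager than any other member did. The distance usual among all genes was not computed, so the members are not shown to vary together as a set. These likenesses are over 14 arrays that share the groups, the arrays against their labels and the scaling, and are given as a description.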

How the data were processed

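Lung RNA, prepared with Trizol according to the labels' protocols, was measured on 14 arrays, with 6 µg of RNA for each cRNA preparation. The authors deposited log2 expression values, 1 per probe set and array, and MAS5 and GCRMA appear in the submitters' processing notes with neither a version nor a role. Array medians lay between 4.60 and 4.75 and values between 0.446 and 16.1, so no further scaling was applied. A step that compresses high signals would make differences of bright probe sets smaller. Genome coordinates and promoter windows are from RefSeq (GRCm38.p6).

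Groups were taken from the titles. Probe sets of several genes were left out, each gene was represented by its probe set of highest mean, and a gene was tested if it exceeded the array median on at least 3 arrays. A linear model of the 4 groups was fitted over all genes in limma 3.58.1 under R 4.3.3, and variances were moderated by eBayes with a mean-variance trend. Adjusted p-values are Benjamini-Hochberg values from limma, with a call under 0.05. The ± after a difference is its standard error, and small groups leave these differences imprecise. Replicate numbers were not used to pair the arrays across groups in the main fit. Of 19 same-numbered pairs, 7 correlated over 0.1, with r from -0.352 to 0.316. Pairs with different numbers were not compared, so whether the arrays were paired is not settled.

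The rule for the 9 genes uses no measured value, but the genes, the marker lists and the tests were chosen with earlier results of these data known. All 9 genes are named, and from the lists the genes called over the 12 arrays in either ventilation comparison, where a gene given in the first is not always named again in the second. Aqp5, Cldn18 and Sftpc were chosen after their values were seen. Alternatives were leaving out arrays, array weights, other filters, quantile normalization, the mean of probe sets, no variance trend, each pair of groups alone and the replicate block. A term for the Xist pattern, PBEF+/- replicate 2 left out besides the pair, and 1 more of the 12 arrays left out, were chosen after seeing the data.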

Additional observations from a re-analysis of the deposited data

How the results depend on the processing

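Over 26 alternatives, the 45 differences of the members gave 1161 values, of which 1048 kept direction and call, 73 changed sign with no call and 40 became called. No member was called in the main fit, which uses all arrays without array weights, so none could be lost. For VALI minus Control the log2 difference ran from -0.37 to -0.26 for Ager, -1.30 to -0.66 for Rtkn2, -0.29 to -0.21 for Cav1, -0.51 to -0.30 for Clic5, -0.38 to -0.20 for Emp2, -0.69 to -0.29 for Akap5, -0.21 to -0.11 for Hopx, -0.13 to 0.05 for Pdpn and -0.11 to 0.29 for Gprc5a. In VALI minus Control, members called were 6 without VALI replicate 4 and PBEF+/- replicate 3, 6 with array weights, 6 without PBEF+/- replicate 2 as well, 5 with the Xist pattern as a term over the 12 arrays, and 0 to 4 with 1 array left out (4, Ager, Rtkn2, Cav1 and Clic5, without VALI replicate 4). The same settings called 1933, 4689, 2523, 1588 and 0 to 680 of all genes, and the mean of probe sets 2 and the pair of groups alone 27. In VILI PBEF+/- minus PBEF+/-, members called were 3, 5 with array weights, 2, 2 and 0 to 1 (Akap5 without PBEF+/- replicate 3), among 3003, 3363, 1863, 2136 and 0 to 2157 of all genes, with 1 gene for the mean of probe sets. In VILI PBEF+/- minus VALI, 13 genes were called without the 2 arrays, 1711 with array weights, 13 without 3 arrays, 13 with the Xist term, 1 for the pair alone and 0 to 9 with 1 array left out, with 0 members in each. The interaction gave 20 genes with array weights, and 0 to 1242 genes and 0 to 2 members with 1 more of the 12 arrays left out. With the replicate block, 0 genes and 0 members were called in every comparison. The causes of these changes were not tested. In PBEF+/- minus Control, leaving 1 more of the 12 arrays out called 0 to 1892 genes and 0 to 5 members, the highest of both without PBEF+/- replicate 1, where replicate 2 alone stood for the group.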
